A study of Mus musculus with 6 samples.

Results

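The genes described here are 36 genes of the cell cycle engine and of replication licensing, listed by name: 15 cyclins, cyclin-dependent kinases (CDKs) and CDC25 phosphatases, 9 genes of the E2F and retinoblastoma (Rb) families, 5 mitotic regulators, and Cdc6 with 6 MCM helicase subunits. They were found on the arrays as every non-control probe annotated to a listed gene, divergent promoters included. All 36 of 36 had probes, 966 in all, out of 17094 genes with probes on the arrays. A window of neighbouring probes could be formed for 35 of them. Cdk6 had only scattered probes and no window. A promoter mean could be formed for 34, since Mcm7 was covered by probes downstream of its start and inside the gene but by none at its promoter.

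The study measured where the SMAD proteins lie on promoters of R1, a line of mouse embryonic stem cells, undifferentiated and kept without feeder cells and with leukemia inhibitory factor, by chromatin immunoprecipitation followed by hybridisation to promoter arrays (ChIP-chip). The 3 groups were immunoprecipitates with an antibody against SMAD1/5, against SMAD2 or against SMAD4, each set against whole cell extract DNA, the input, of its own experiment, and no group carried a mutation or a treatment. Each group consisted of 2 arrays that hold different probes, from 1 biological replicate, so no value below has a replicate check, no test was possible and no p-value is given. The immunoprecipitate carried Cy5 and the input Cy3 on all 6 arrays, with no dye swap. The titles of the SMAD2 samples name SMAD2, while their extraction protocol names the SMAD1/5 antibody, and the arrays cannot settle this. The arrays measured no RNA, so the cell type could not be checked by marker expression.

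SMAD1/5 carry signals of bone morphogenetic proteins (BMPs) and SMAD2 those of Activin, Nodal and TGF-beta, and both act with the shared partner SMAD4 to regulate genes. In many differentiated cells TGF-beta signalling halts the cell cycle through CDK inhibitors and through Rb-family proteins bound to E2F factors. In embryonic stem cells the cycle is fast, with a short first gap phase and high activity of cyclin E with CDK2. Licensing is the loading of the MCM helicase onto replication origins, for which CDC6 is one of the loading factors, and many licensing genes are known E2F targets.

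Of the 36 genes, 26 had a promoter in the RefSeq promoter table of mouse build GRCm38.p6, with 30 entries because Ccnd3, E2f2, E2f3 and Mcm7 had more than 1. Ccna2, Ccnd1, Ccnd2, Ccne2, Cdc25c, E2f4, E2f5, Rb1, Aurkb and Mcm4 had none. The 250 bases before the start are printed for the genes with 1 entry that had the highest or the lowest promoter mean with an antibody, to show the letters of promoters that were measured high or low. Ccnd1, Ccne2, Cdc25c, Mcm4 and E2f3 lay further out, and had no entry or more than 1. Within the genes with 1 entry, Aurka was highest with SMAD1/5, Mcm5 lowest with SMAD1/5 and with SMAD2, Cdk4 highest with SMAD2, Bub1 highest with SMAD4 and Mcm2 lowest with SMAD4. Capitals mark, on either strand, the SMAD recognition letters GTCT, the GC-rich SMAD element GGCGCC, the E2F sites TTTCCCGC and TTTGGCGC, the cell cycle homology region (CHR) letters TTTGAA and TTCGAA, and the CCAAT box.
Aurka, chr2:172370571-172370820, minus strand: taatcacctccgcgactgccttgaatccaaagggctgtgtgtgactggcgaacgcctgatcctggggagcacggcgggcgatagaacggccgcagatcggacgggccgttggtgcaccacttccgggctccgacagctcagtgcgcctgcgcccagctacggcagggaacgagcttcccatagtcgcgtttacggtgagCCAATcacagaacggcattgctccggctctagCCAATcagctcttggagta
Mcm5, chr8:75109259-75109508, plus strand: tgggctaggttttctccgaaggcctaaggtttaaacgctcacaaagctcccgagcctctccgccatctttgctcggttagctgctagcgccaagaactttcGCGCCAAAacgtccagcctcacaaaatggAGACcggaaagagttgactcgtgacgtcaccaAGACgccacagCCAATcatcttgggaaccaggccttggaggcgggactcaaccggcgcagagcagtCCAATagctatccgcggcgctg
Cdk4, chr10:127063285-127063534, plus strand: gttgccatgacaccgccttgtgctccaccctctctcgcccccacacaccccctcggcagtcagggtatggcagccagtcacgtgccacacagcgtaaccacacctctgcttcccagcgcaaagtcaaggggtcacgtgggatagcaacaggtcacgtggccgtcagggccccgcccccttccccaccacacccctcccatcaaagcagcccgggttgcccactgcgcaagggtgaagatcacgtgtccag
Bub1, chr2:127831860-127832109, minus strand: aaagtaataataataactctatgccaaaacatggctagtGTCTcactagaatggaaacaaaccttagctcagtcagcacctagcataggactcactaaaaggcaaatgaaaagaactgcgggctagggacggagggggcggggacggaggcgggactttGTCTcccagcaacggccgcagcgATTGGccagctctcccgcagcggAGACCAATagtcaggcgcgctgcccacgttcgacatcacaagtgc
Mcm2, chr6:88898781-88899030, minus strand: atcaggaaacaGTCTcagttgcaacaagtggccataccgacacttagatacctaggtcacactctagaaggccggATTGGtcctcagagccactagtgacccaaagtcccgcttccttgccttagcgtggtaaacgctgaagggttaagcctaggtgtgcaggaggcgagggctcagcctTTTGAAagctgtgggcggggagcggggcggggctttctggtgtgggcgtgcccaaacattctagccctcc

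The letters of an E2F site stood in 7 of the 30 promoter entries of these genes (23.3%), against 1.30% of all 32851 entries of the same length. Of the 7 entries of Cdc6 and the MCM genes, 4 held it, and in Mcm5 it began at position -149 from the start. A CCAAT box stood in 20 of 30 (66.7%, against 33.8% of all entries) and CHR letters in 7 of 30 (23.3%, against 17.1%). The SMAD recognition letters GTCT stood in 19 of 30 (63.3%), against 82.9% of all entries, and the GC-rich SMAD element in 6 of 30 (20.0%), against 9.59%. Among the 5 printed promoters, Aurka and Cdk4 held no GTCT on either strand, while Mcm5 held 2 copies, Mcm2 held 1 and Bub1 held 3. TTTGGCGC can share letters with GGCGCC, as AGAC, the reverse of GTCT, shares letters with CCAAT in Bub1. A match is a description of the letters and not a binding site.

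All values below are log2 ratios of immunoprecipitate over input, centred on each array's median. A window is the mean of at least 3 probes within 500 bp of a probe, and its z counts how many robust SDs of windows it lies above or below the median of the array's windows. The input channel was dim with SMAD1/5, where only 72.3% and 87.0% of input spots were well above background, against 85.9% and 88.4% with SMAD2 and 99.6% and 99.7% with SMAD4. The arrays also differed in the spread of their windows. A z of 2 stood for a 4.24-fold to 4.83-fold ratio with SMAD1/5, and for a ratio between 2.23-fold and 2.29-fold with SMAD2 and SMAD4. Among probes of the cell cycle genes, the input was below the level the scanner software could measure at 16.4% with SMAD1/5, at 9.52% with SMAD2 and at 0.207% with SMAD4, so that the ratio there is only a bound. Probe positions are those of the array files, and no source used here gives their genome build.

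No cell cycle or licensing gene had an enriched window with any of the 3 antibodies. A window counted as enriched when its z reached 4 and 2 or more of its probes exceeded the array's 95th percentile of single probes. The count was 0 of 35 with SMAD1/5 (0% of 16776 genes on the same arrays), 0 of 35 with SMAD2 (0.0596%) and 0 of 35 with SMAD4 (2.88%). Windows as far below the median, with a z of -4 or less, were found in 1 of 35 with SMAD1/5 (2.31% of all genes), the mitotic checkpoint kinase gene Bub1, in 0 of 35 with SMAD2 (0.209%) and in 0 of 35 with SMAD4 (0.0477%). These counts are small on both sides, and at such background shares a list of 35 genes gives few or no calls.

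At the looser mark of a z of at least 2, 4 of 35 genes (11.4%) had a high window with SMAD1/5, against 4.99% of all genes. With SMAD2 they were 8 of 35 (22.9%), against 15.7%. With SMAD4 they were also 8 of 35 (22.9%), against 41.3%. The 4 genes with SMAD1/5 were Mcm7, Cdk4, Cdc6 and Ccnb2, which sat between 2.01 and 2.17, close to the mark. The number with SMAD1/5 was 0 when only probes well above background in both channels were used, against 2.21% of all genes. After normexp background correction it was 13 (37.1%, against 35.8%). The number with SMAD2 was 1 (2.86%, against 8.47%) when the mean input of the 3 antibodies stood in for the SMAD2 input. With SMAD2 the share lay below that of all genes under 5 of the 6 alternatives, for example 8.57% and 14.2% after normexp correction, and above it with only well measured probes (20.0% and 10.2%). With SMAD1/5 it also lay below with wider windows (5.56% and 7.84%), and with SMAD4 it lay above against the mean input (11.4% and 10.0%). Counted over single windows, which sets aside how many windows a gene has, 0.592% of 845 windows of these genes lay at a z of at least 2 with SMAD1/5 (0.341% of all windows), 1.69% of 827 with SMAD2 (1.37%) and 2.96% of 845 with SMAD4 (5.97%).

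The median highest z per gene was 1.48 in the cell cycle genes and 1.23 in all genes with SMAD1/5. It was 1.31 and 1.30 with SMAD2, and 1.29 and 1.77 with SMAD4. The cell cycle genes thus lay at the level of all genes with SMAD2 and lower than all genes with SMAD4. The order with SMAD4 turned under 2 alternatives: the medians were 1.52 in the cell cycle genes and 1.46 in all genes after normexp correction, and 1.36 and 1.24 against the mean input of the 3 antibodies. The cell cycle genes had a median of 22 windows each and all genes 26 on the SMAD4 arrays. Low windows at a z of -2 or less were found in 8 of 35 genes with SMAD1/5 (30.7% of all genes), 10 of 35 with SMAD2 (27.1%) and 6 of 35 with SMAD4 (19.9%).

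**Figure D1:**
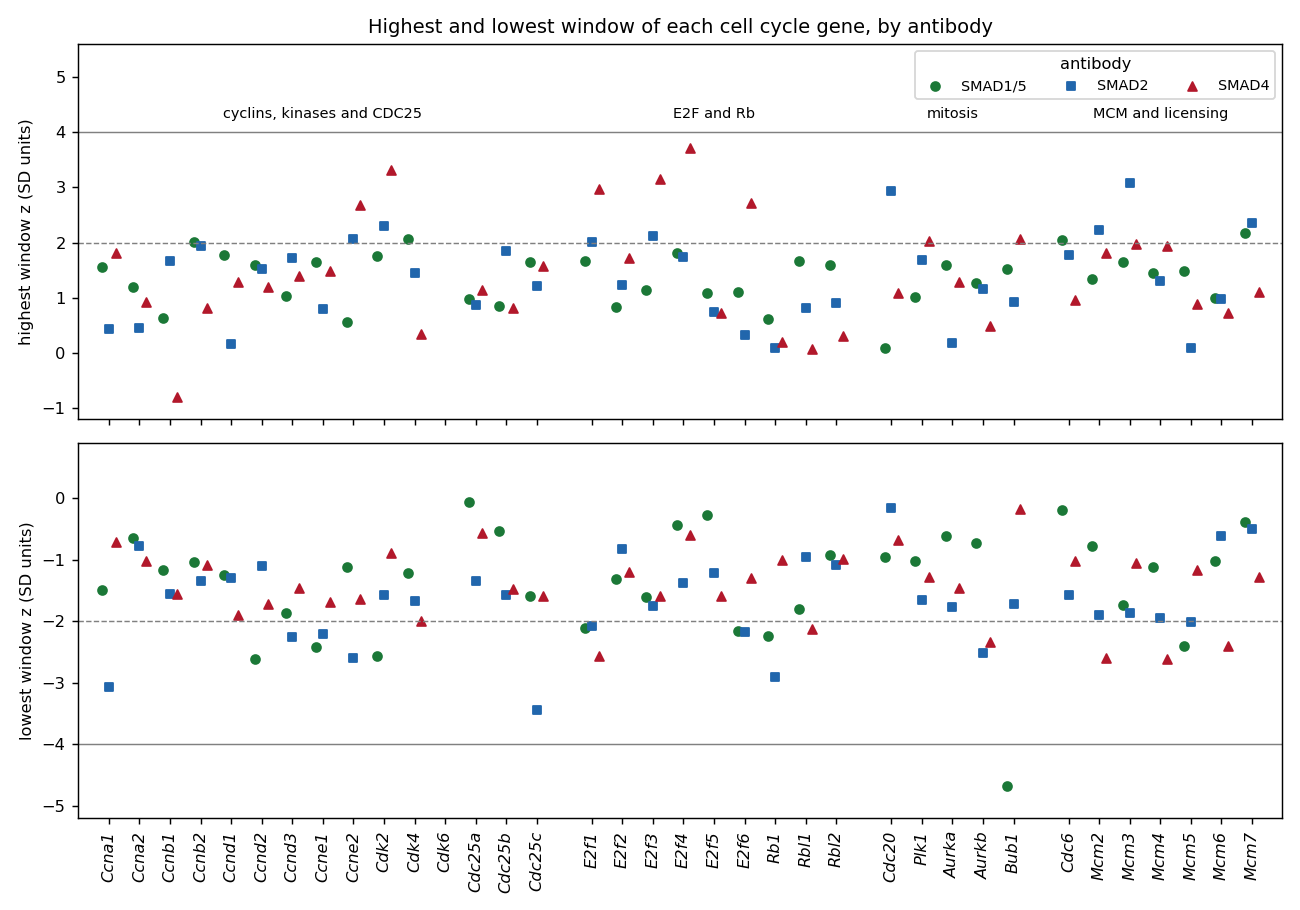
The z of the highest window (upper panel) and of the lowest window (lower panel) of each gene, in SD units of windows, with SMAD1/5 (circles), SMAD2 (squares) and SMAD4 (triangles), 1 biological replicate each. Dashed lines stand at a z of 2 or -2 and solid lines at 4 or -4: no gene passes 4 in the upper panel, and Bub1 with SMAD1/5 is the only point past -4. Cdk6 has no window.

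Among cyclins, kinases and CDC25 phosphatases, which drive the transitions of the cycle, 2 of 14 measured genes (14.3%) had a window at a z of at least 2 with each antibody, against 4.99% of all genes with SMAD1/5, 15.7% with SMAD2 and 41.3% with SMAD4. Cdk4, the cyclin D partner that acts in the first gap phase, was the highest with SMAD1/5. Its window inside the gene, centred 947 bp after the start, had a mean log2 ratio of 2.16 ± 0.82 (SD over 3 probes) and a z of 2.07, against a z of 1.26 with SMAD2 and 0.27 with SMAD4 at the same probes. Over the alternatives, the highest SMAD1/5 z of Cdk4 ran from 1.61 after normexp correction to 2.02 after an intensity loess. Only the loess left it above 2. Cdk2, the partner of cyclins E and A, was the highest of this group with both SMAD2 and SMAD4, but in different places.

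With SMAD4, the highest window of Cdk2 lay inside the gene, 3767 bp after the start (chr10:128202979-128203316), at a mean of 1.88 ± 0.50 (SD over 3 probes) and a z of 3.32. The same probes had a z of -1.61 with SMAD1/5 and 0.50 with SMAD2. The immunoprecipitate signal of SMAD4 there was 0.89 log2 units lower than the mean of the other 2 immunoprecipitates, and its input was 3.62 units lower than the other inputs, so the high ratio went with a low input. Against the mean input of the 3 antibodies its highest z was 2.16. With SMAD2, the highest window of Cdk2 was centred 1213 bp after the start, with a mean of 1.35 ± 1.02 (SD over 5 probes) and a z of 2.30. Single probes there ranged from 0.066 to 2.18.

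Ccne2, a cyclin E gene, had a z of 2.69 with SMAD4 in a window 217 bp after its start and of 2.07 with SMAD2 in another, 1190 bp after it. The SMAD4 window was uneven, with single probes from -0.35 to 3.44. Ccnd1, the cyclin D gene best known as a target of growth signals, had the highest promoter mean of all 34 genes with SMAD1/5, 2.00 ± 0.46 (SD over 3 probes), against 0.12 ± 0.33 with SMAD2 and -0.70 ± 0.80 with SMAD4. Its 3 promoter probes read 1.57, 1.93 and 2.49 with SMAD1/5, and none of its probes lay closer to the start than -526 bp. The lowest windows with SMAD2 were those of Cdc25c, a phosphatase that activates CDK1 at entry into mitosis (z of -3.44, mean -1.94 ± 0.63, SD over 3 probes), and of Ccna1, the germ line cyclin A (z of -3.07, mean -1.76 ± 0.73, SD over 3 probes). The lowest z of Cdc25c was -1.12 after normexp correction and -2.13 against the mean input, and that of Ccna1 was -1.64 with only probes well above background and -2.05 with wider windows. With SMAD1/5, Ccnd2, another cyclin D gene, had the lowest window of this group (z of -2.61, mean -3.40 ± 3.51, SD over 4 probes), and its lowest z ran from -4.76 after normexp correction to -1.51 against the mean input.

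In the E2F and Rb group, which holds activating and repressing E2F factors and the pocket proteins that bind them, E2f4 had the highest SMAD4 window of the 35 genes. E2f4, a factor that works mainly in repressive complexes with pocket proteins, had a mean of 2.11 ± 1.45 (SD over 4 probes) and a z of 3.71 in a window 4024 bp after its start, inside the gene (chr8:103899928-103900785). Its 4 probes read 0.68, 3.70, 2.97 and 1.08 with SMAD4, so that 2 probes carried most of the mean. The same window had a z of 0.28 with SMAD1/5 and 0.35 with SMAD2. The SMAD4 immunoprecipitate differed from the other immunoprecipitates by -0.065 log2 units there, and the SMAD4 input from the other inputs by -2.16. The highest z of E2f4 was 2.45 after normexp correction and 2.08 against the mean input.

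E2f3 and E2f1, both activating E2F factors, had SMAD4 windows at a z of 3.15 and 2.98, and E2f6, a repressor that needs no pocket protein, at 2.71. The E2f3 window lay at -3958 bp from the start (chr13:29355317-29355939), with a mean of 1.79 ± 0.70 (SD over 4 probes) and all 4 probes at 1.07 or more. Against the mean input the highest z of E2f3 was 1.41. In all, 4 of 9 genes of this group (44.4%) had a z of at least 2 with SMAD4, against 41.3% of all genes. With SMAD2, 2 of 9 did (22.2%, against 15.7%), E2f3 at 2.12 and E2f1 at 2.02. With SMAD1/5 none of 9 did, against 4.99% of all genes, and E2f4 was highest at 1.81. The 3 pocket protein genes Rb1, Rbl1 and Rbl2 were the lowest of the group with SMAD4, at 0.20, 0.071 and 0.30.

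Of the 5 mitotic genes, Cdc20, the activator of the anaphase-promoting complex, had the highest SMAD2 window, at a z of 2.94, in the promoter at -756 bp from the start. Its mean of 1.74 ± 1.68 (SD over 3 probes) came from probes at 0.23, 3.55 and 1.45. At the probe of 3.55 the SMAD2 immunoprecipitate stood at 1.06 and its input at -2.57 relative to the array medians. Since 1 of the 3 input spots was too dim to measure, the mean is a bound. The highest z of Cdc20 was 1.90 with only probes well above background and 1.41 against the mean input. Plk1 and Bub1, both mitotic kinases, passed a z of 2 with SMAD4, at 2.03 and 2.07. They were 2 of 5 genes (40.0%), against 41.3% of all genes. Aurka, the kinase of the spindle poles, had a SMAD1/5 promoter mean of 1.55 ± 0.91 (SD over 5 probes), against -0.41 ± 0.78 with SMAD2 and -0.73 ± 0.87 with SMAD4, and its 5 SMAD1/5 probes ran from 0.59 to 2.62. The SMAD1/5 mean is a bound, with 2 of the 5 input spots too dim to measure.

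Bub1, a kinase of the spindle checkpoint, had the only window past -4. With SMAD1/5 its window at -2409 bp from the start (chr2:127574741-127575552) had a mean of -5.95 ± 0.74 (SD over 5 probes) and a z of -4.68. The 5 probes read -4.93, -5.46, -6.14, -6.54 and -6.67, in order of their distance from the start. The same window had a z of -0.26 with SMAD2 and 0.41 with SMAD4. The SMAD1/5 immunoprecipitate was 1.02 log2 units higher than the other immunoprecipitates there and its input 7.72 units higher than the other inputs, so the low ratio lay in the input channel. Nearer the start, Bub1 had a SMAD1/5 promoter mean of 0.68 ± 1.03 (SD over 7 probes). With SMAD1/5 the lowest z of Bub1 was -10.48 after normexp correction and -3.43 after an intensity loess. It was -1.26 against the mean input of the 3 antibodies. Bub1 was not called with SMAD1/5 under the loess or the mean input. Against the mean input, Bub1 had a low window past -4 with SMAD2. That mean holds the SMAD1/5 input, which stood 7.72 units above the other inputs in the window above. With the SMAD2 input alone, the lowest SMAD2 z of Bub1 was -1.71.

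The licensing genes, Cdc6 and the 6 MCM helicase subunits, held the highest SMAD2 window and the 2 lowest SMAD4 windows of the whole list. E2f1 was nearly as low with SMAD4. Mcm3 had a SMAD2 mean of 1.83 ± 0.22 (SD over 3 probes) and a z of 3.08 inside the gene, 2272 bp after the start (chr1:21013510-21014016), with its probes at 1.57, 1.92 and 1.98. At these probes the z was 1.65 with SMAD1/5 and 1.19 with SMAD4. The SMAD2 immunoprecipitate was 1.07 log2 units lower than the other immunoprecipitates there and the SMAD2 input 2.10 units lower than the other inputs, with 2 of the 3 input spots too dim to measure, so this mean is a bound. With only probes well above background, the highest SMAD2 window of Mcm3 had a z of 1.36, and it had one of 1.69 after normexp correction and 1.63 against the mean input.

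Mcm7 had a z of 2.17 with SMAD1/5 (mean 2.49 ± 0.70, SD over 3 probes) and of 2.36 with SMAD2 (mean 1.40 ± 0.67, SD over 4 probes) in overlapping windows downstream, centred 7338 bp and 7563 bp past the annotated start, and its highest z with SMAD4 was 1.11. 1 of the 3 probes and 2 of the 4 were not annotated to Mcm7. It was the only gene with a high window for both SMAD1/5 and SMAD2. In the SMAD1/5 window 2 of the 3 input spots were too dim to measure, and with only probes well above background its highest SMAD1/5 z was -0.29. Its highest SMAD2 z was 1.49 against the mean input. Cdc6 had a z of 2.04 with SMAD1/5 (mean 2.13 ± 0.56, SD over 5 probes), at -4324 bp from its start, with all 5 probes at 1.53 or more and no dim spot. Of those 5 probes, 2 were not annotated to Cdc6. Its highest z was 5.45 after normexp correction, 3.40 in the authors' deposited log2 values and 3.18 after an intensity loess. It was below 2 under the other alternatives. These gave 1.95 with only probes well above background, 1.91 with wider windows and 1.69 against the mean input.

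With SMAD4, the highest licensing gene was Mcm3 at a z of 1.98, and 0 of 7 reached 2, against 41.3% of all genes. With SMAD2, 3 of 7 did (42.9%, against 15.7%), and with SMAD1/5, 2 of 7 (28.6%, against 4.99%). These counts rest on few genes. The lowest SMAD4 window of all 35 genes was that of Mcm4 (z of -2.61, mean -1.35 ± 0.66, SD over 6 probes), at the divergent promoter it shares with a neighbour. Some of these 6 probes were not annotated to Mcm4. Next came Mcm2 (z of -2.59, mean -1.35 ± 0.48, SD over 3 probes), at its start, and E2f1 at a z of -2.57. Against the mean input of the 3 antibodies the lowest z of Mcm4 was -0.60. At the Mcm4 window the SMAD4 immunoprecipitate differed from the other immunoprecipitates by 0.16 log2 units and the input from the other inputs by 1.57.

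**Figure D2:**
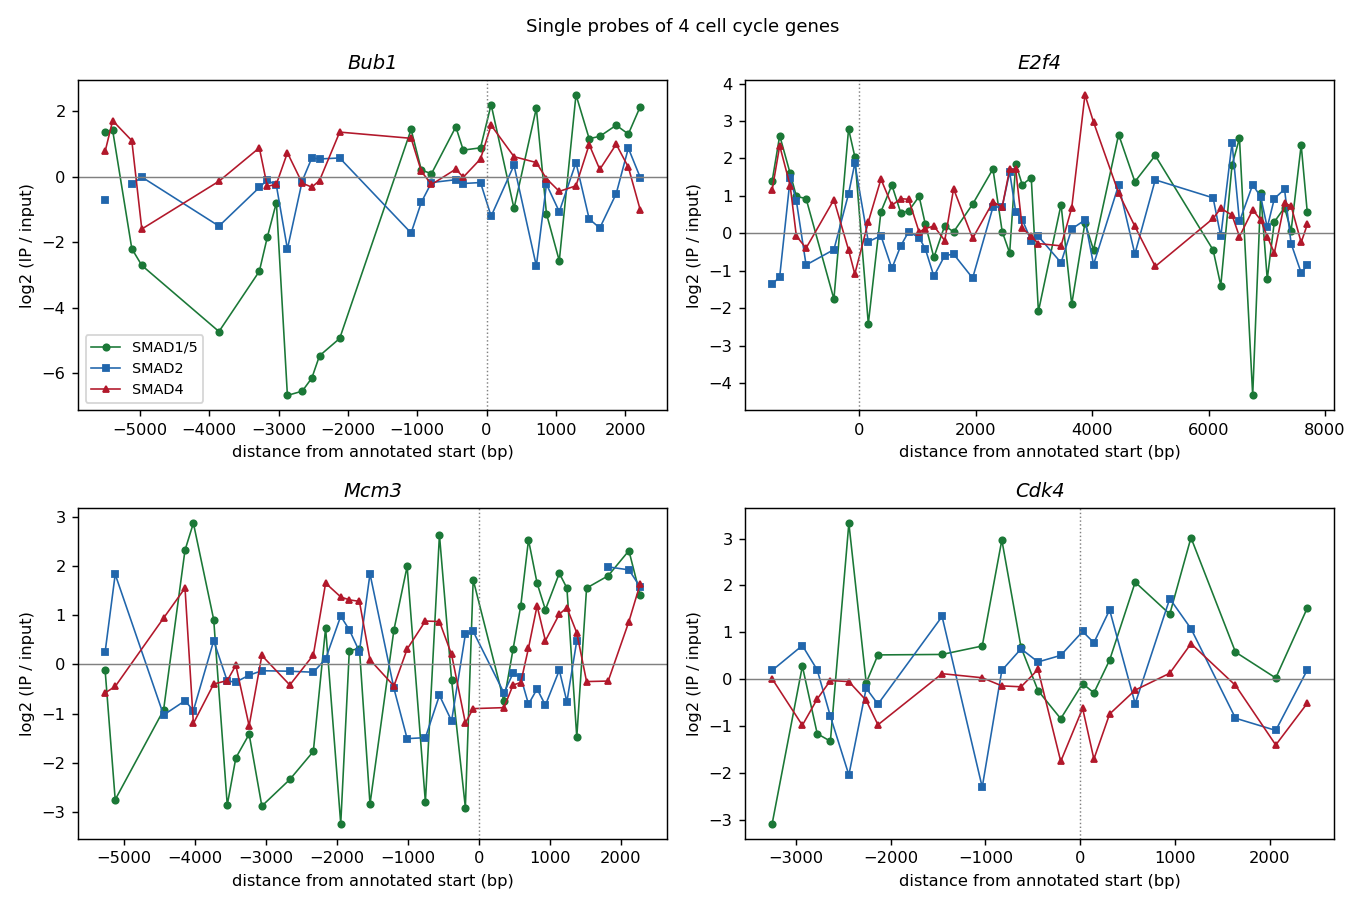
Centred log2 ratio of immunoprecipitate over input at every probe of Bub1, E2f4, Mcm3 and Cdk4 against the distance from the annotated start in bp, with SMAD1/5 (circles), SMAD2 (squares) and SMAD4 (triangles). The 5 Bub1 probes between -4.93 and -6.67 with SMAD1/5 stand apart from the other antibodies, and the highest E2f4 point, 3.70, is a SMAD4 probe inside the gene.

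Close to the start site the ratios lay within 1 log2 unit of 0 with SMAD2 and SMAD4, and 9 of 34 genes lay further out with SMAD1/5. The promoter mean, taken from -1000 to +500 bp, was 1 or more in 2 of 34 genes with SMAD1/5 (5.34% of all genes), which were Ccnd1 and Aurka, in 0 of 34 with SMAD2 (1.35%) and in 0 of 34 with SMAD4 (3.72%). It was -1 or less in 7 of 34 with SMAD1/5 (24.3%), in 0 of 34 with SMAD2 (1.81%) and in 0 of 34 with SMAD4 (1.85%). The 7 low genes were Ccna1, Ccnb1, Ccne2, E2f1, E2f2, E2f6 and Mcm5. Mcm5 was the lowest, with -2.61 ± 2.88 (SD over 7 probes) with SMAD1/5, against -0.61 ± 0.27 with SMAD2 and -0.57 ± 0.68 with SMAD4, and its SMAD1/5 probes ran from -5.81 to 1.52.

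The median promoter mean with SMAD1/5 was -0.19 in the cell cycle genes and -0.36 in all genes. With SMAD2 the medians were 0.11 and 0.044, with Cdk4 highest at 0.72 ± 0.43 (SD over 7 probes) and E2f3 lowest at -0.67 ± 1.31 (SD over 7 probes). With SMAD4 they were -0.22 and -0.040, with Cdc25c highest at 0.54 ± 0.94 (SD over 7 probes) and Mcm4 lowest at -0.99 ± 1.01 (SD over 5 probes). Against the mean input of the 3 antibodies the SMAD4 medians were -0.079 and -0.13, so their order turned. The SMAD4 promoter mean was above 0 in 10 of 34 genes (29.4%), against 46.7% of all genes. All 6 licensing genes with a promoter mean were below 0 with SMAD4, from -0.99 to -0.21. Means below 0 with SMAD4 were also common in the other gene lists described below. They were found in 15 of 19 replication origin and fork genes, 22 of 27 further cycle regulators and 4 of 6 CDK inhibitors. Among genes that respond to the signals they were found in 10 of 12 BMP targets and 6 of 10 Activin and Nodal targets. The SD over a gene's own promoter probes had a median of 1.45 with SMAD1/5, 0.67 with SMAD2 and 0.73 with SMAD4, larger than most of the means. The SMAD1/5 median moved with the setting, to 0.17 after normexp correction (all genes 0.11), -0.035 against the mean input (-0.19) and -0.67 in the narrower span (-0.49). The cell cycle genes were below all genes in that span, in the authors' deposited values (-0.25 and -0.17) and after an intensity loess (-0.30 and -0.23).

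**Figure D3:**
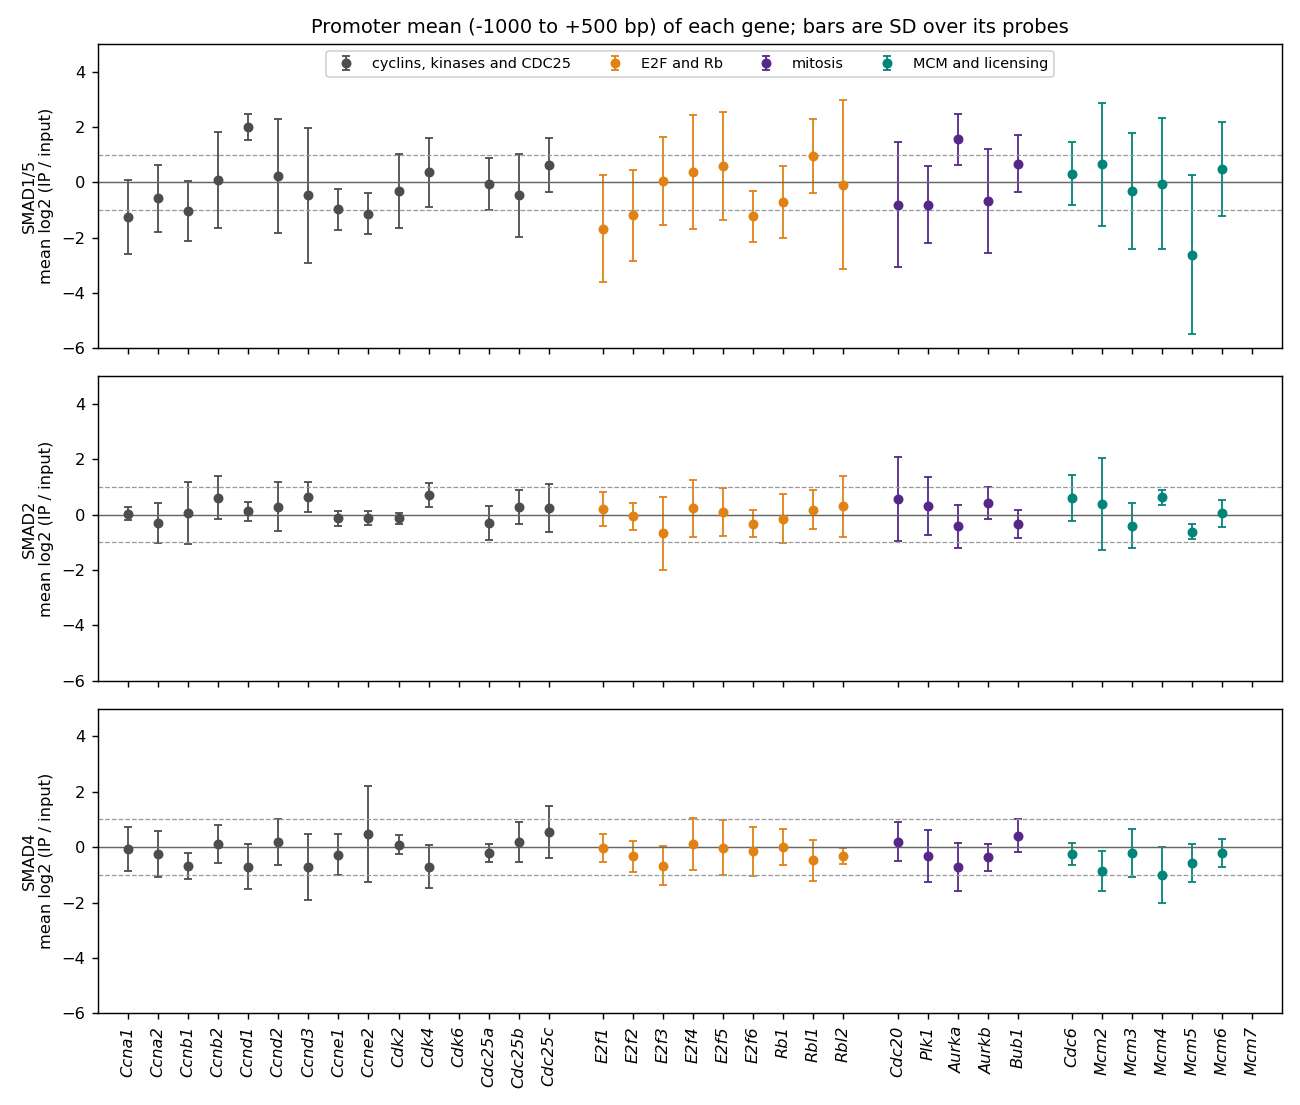
Mean centred log2 ratio of immunoprecipitate over input of the probes from -1000 to +500 bp of each gene's start, with SD over its probes, for SMAD1/5, SMAD2 and SMAD4 from top to bottom. Dashed lines mark 1 and -1: Ccnd1 (2.00) and Aurka (1.55) with SMAD1/5 are the only means past 1, and all means past -1 are SMAD1/5 means. Cdk6 and Mcm7 have no promoter mean.

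Each channel was also read alone, as log2 signal relative to the array's median. Over the 34 promoters the median immunoprecipitate level was 0.21 and the median input level 0.69 with SMAD1/5. They were 0.51 and 0.29 with SMAD2, and 0.20 and 0.67 with SMAD4. The genes differed more in the SMAD1/5 input, from -0.87 at Aurka to 4.59 at Mcm5, than in its immunoprecipitate, from -0.99 at Ccnb1 to 1.30 at Mcm5. Across the 34 genes the SMAD1/5 ratio correlated with the input level at a Pearson r of -0.85 (-0.58 in all genes). With the immunoprecipitate level the r was -0.10 (0.22 in all genes). The r with the input was -0.48 with SMAD2 (-0.25 in all genes) and -0.65 with SMAD4 (-0.52). These describe 34 genes on 2 arrays each, and the input level is part of the ratio, which by itself draws r below 0.

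**Figure D4:**
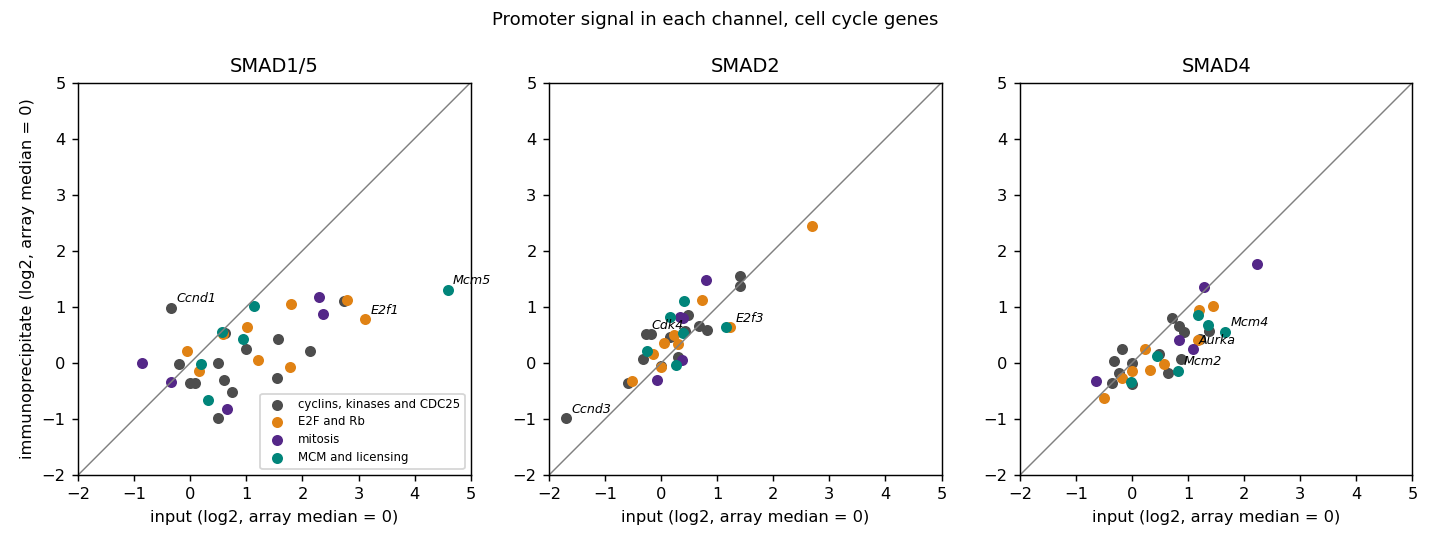
Immunoprecipitate level (vertical) against input level (horizontal) of the 34 promoters, both as mean log2 signal relative to the array median, with SMAD1/5, SMAD2 and SMAD4 in separate panels and the gene groups in colour. The line marks equal levels: with SMAD1/5 the points spread along the input axis, from -0.87 to 4.59, and the 3 points with the largest promoter mean on either side are named.

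The highest windows were set beside the other antibodies in the same way. With SMAD4, the input was at least 1 log2 unit below the other inputs in the highest window of 18 of 35 genes (51.4%, against 57.8% of all genes), and the immunoprecipitate was at least 1 unit above the others in 2 (5.71%, against 5.24%). With SMAD2 the input was that low in 20 of 35 (57.1%, against 44.7%) and the immunoprecipitate that high in 0 (against 9.65%). With SMAD1/5 the input was that low in 5 (14.3%, against 13.0%) and the immunoprecipitate that high in 13 (37.1%, against 21.9%). Among the windows at a z of at least 2 alone, the input was that low in 3 of 4 with SMAD1/5, 7 of 8 with SMAD2 and 7 of 8 with SMAD4, and the immunoprecipitate that high in 1, 0 and 1. For such windows the shares of all genes were not counted, so these numbers show nothing particular to the cell cycle genes. Over the highest windows of all 35 genes, the SMAD4 shares lay near those of all genes. Windows picked for a high ratio favour a low input by their choice. In the lowest SMAD1/5 windows the input was at least 1 unit above the other inputs in 22 of 35 genes (62.9%, against 71.1%). What moved the inputs was not tested.

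**Figure D5:**
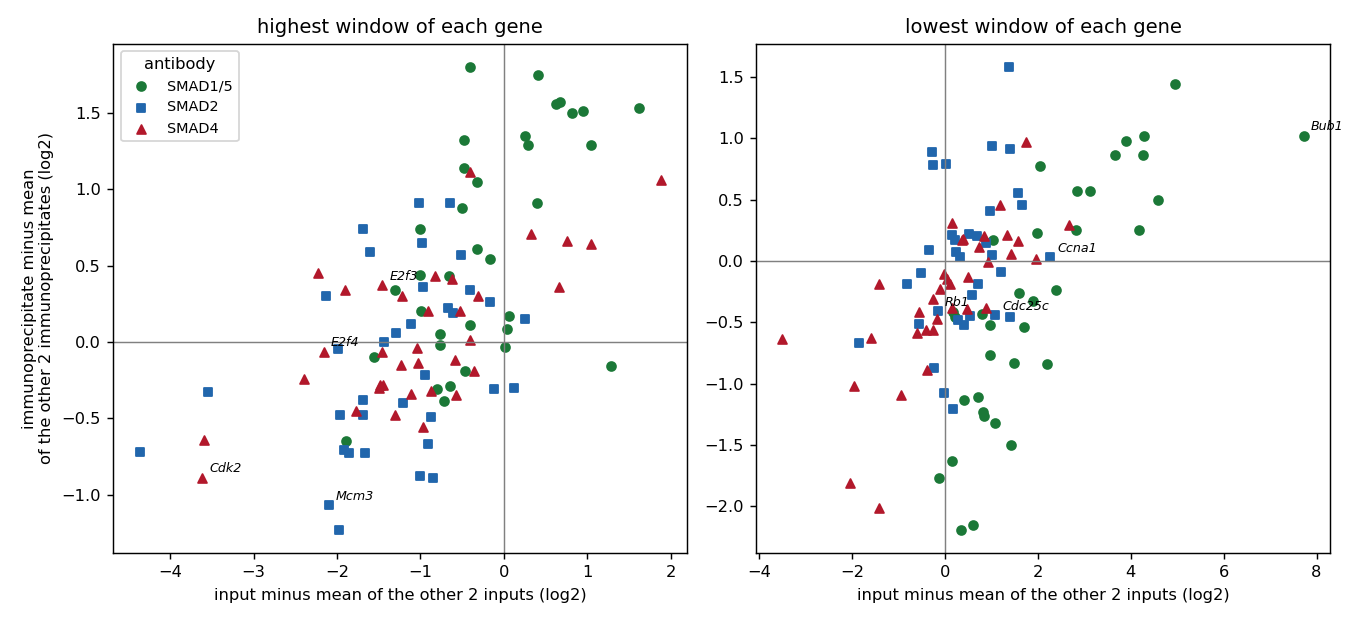
For the highest window (left) and the lowest window (right) of each of the 35 genes, the immunoprecipitate signal minus the mean of the other 2 immunoprecipitates (vertical) against the input signal minus the mean of the other 2 inputs (horizontal), in log2 units, with SMAD1/5 (circles), SMAD2 (squares) and SMAD4 (triangles). The 4 windows farthest from a z of 0 are named: on the left they lie at inputs below 0, and on the right Bub1 stands at an input difference of 7.72.

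Taken by distance from the start, the probes of these genes showed no peak of the ratio over the start site. From -250 to 250 bp the mean log2 ratio of 85 probes was -0.53 ± 0.19 (SE over probes) with SMAD1/5, against -0.61 over all genes, -0.0046 ± 0.077 with SMAD2, against 0.029, and -0.24 ± 0.090 with SMAD4, against -0.049. Both channels were brightest in this bin, as they were over all genes. With SMAD1/5 the immunoprecipitate level was 0.39 and the input level 1.50 (0.30 and 1.48 over all genes). With SMAD2 they were 0.86 and 0.79 (0.72 and 0.61), and with SMAD4 0.42 and 0.77 (0.39 and 0.54). In the bin from -1000 to -250 bp, the SMAD2 ratio was 0.24 ± 0.10 (SE over 98 probes), against 0.0040 over all genes, and the SMAD4 ratio -0.21 ± 0.086 (SE over 100 probes), against 0.027. Probes of 1 gene share its chromatin and its array, so these errors are too small as errors of a gene group.

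Read side by side, 20 of 35 genes had no window at a z of at least 2 with any antibody, 10 had one with 1 antibody, 5 with 2 and 0 with all 3. These are 57.1%, 28.6%, 14.3% and 0%, against 47.8%, 42.8%, 8.78% and 0.543% of 16772 genes. The genes with high windows for both SMAD2 and SMAD4 were Ccne2, Cdk2, E2f1 and E2f3, 4 of the 8 with each antibody (11.4% of 35, against 7.02% of all genes), and in each of them the windows lay in different places. The promoter means of the 34 genes were only loosely related between antibodies, as were those of all genes, with a Pearson r of 0.18 between SMAD1/5 and SMAD2 (0.055 in all genes), -0.057 between SMAD2 and SMAD4 (0.059) and -0.12 between SMAD1/5 and SMAD4 (0.0066). The immunoprecipitate levels were more alike, with r of 0.41, 0.74 and 0.56 for the same pairs, against 0.71, 0.87 and 0.74 in all genes. The input levels, which involve no antibody, were also related. Their r was 0.53, 0.35 and 0.36 for these pairs, against 0.57, 0.65 and 0.49 in all genes. Promoter means were above 0 with all 3 antibodies in 4 of 34 genes and below 0 with all 3 in 7. The shares of all genes were not counted here, so these numbers show nothing particular to the cell cycle genes.

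Other genes of the pathway were read in the same way. No CDK inhibitor gene (6 measured), gene of the replication origin and fork (21 measured) or further cycle regulator (28 measured) had an enriched window with any antibody. Low windows past -4 were found with SMAD1/5 in Cdkn1c, a CDK inhibitor (z of -4.32), and in Rpa2, a subunit of the single-strand binding protein RPA (z of -5.25). Windows at a z of at least 2 were found with SMAD1/5, SMAD2 and SMAD4 in 0, 3 and 3 CDK inhibitor genes, in 0, 5 and 4 replication genes and in 4, 3 and 11 further regulators, beside 4.99%, 15.7% and 41.3% of all genes. With SMAD4 these were 50.0% of the CDK inhibitors, 19.0% of the replication genes and 39.3% of the further regulators. The highest with SMAD4 were Mcm10, a replication initiation factor (3.96), E2f8, a repressing E2F (3.75), and Cdkn1b, which encodes the inhibitor p27 (3.54). The median highest z of the CDK inhibitors with SMAD4 was 2.21, that of the replication genes 1.11, that of the further regulators 1.38 and that of all genes 1.77. A gene with more windows has more chances of a high one. The CDK inhibitors had a median of 36.5 windows with SMAD4, the replication genes 21, the further regulators 23 and all genes 26. Of genes known to respond to these signals, 12 BMP target genes had a median highest z of 1.20 with SMAD1/5, against 1.23 in all genes, and 10 Activin and Nodal target genes one of 1.60 with SMAD2, against 1.30, and 1.68 with SMAD4, against 1.77. Both lists had more windows per gene than all genes. The medians were 40.5 against 26 for BMP targets with SMAD1/5, and 34 against 25 for Activin and Nodal targets with SMAD2.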

How the data were processed

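ChIP-chip was measured on 6 arrays, 2 per antibody with different probes. Each deposited scanner file holds spot intensity values of both channels, background-subtracted and dye-normalised by Agilent Feature Extraction per the file headers, in version 9.1.3.1 under its CGH settings for SMAD1/5 and SMAD2, and in version 9.5.3.1 under its ChIP settings for SMAD4. For SMAD4, an effect of the extraction and one of the antibody cannot be told apart. The SMAD2 arrays were scanned at 10 micrometres per pixel and the others at 5, per the file headers. Other deposited columns hold flags of 0 or 1 for spots that are outlying, saturated or well above background, which per the file headers come from that software. The authors' deposited log2 values, for which the submitters' processing notes name limma, correlated at 0.737 to 0.952 with log2 red over green, which gives their direction. Their column medians ran from -0.0134 to 0.0774, and their scale and centring are not given in the sources used here. They served as an alternative.

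Outlier spots were left out (13 probes of these genes, all with SMAD2), saturated ones were not. Log2 ratios, processed red over green, had the array's median subtracted and no loess applied. Windows of at least 3 probes within 500 bp were scaled by the distance between the median window and the 15.87th percentile of windows. A promoter mean needed at least 3 probes from -1000 to 500 bp. Errors are SDs over probes of 1 array, and all genes of the same arrays serve as background. The window code was tested on simulated data. Every listed gene may be named, with full values for the 3 highest and 2 lowest windows per antibody and the highest gene of each group. Members and lists were chosen with earlier results of these data known. The 6 alternatives were normexp (limma 3.58.1, offset 50), the authors' values, only probes well above background, other windows and spans, the mean input of the 3 antibodies, and an intensity loess. Tables were made with Python 3.11.15, pandas 2.3.3, numpy 2.4.6 and R 4.3.3. Promoter sequences are from RefSeq.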

Additional observations from a re-analysis of the deposited data

How the results depend on the processing

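The number of cell cycle genes with a window at a z of at least 2 depended on the processing with every antibody. With SMAD1/5 it was 4 (11.4%, against 4.99% of all genes), and 13 (37.1%, against 35.8%) after normexp correction. It was 0 with only well measured probes (against 2.21%) and 2 with wider windows (5.56%, against 7.84%). Against the mean input it was 7 (20.0%, against 18.4%), and after an intensity loess 7 (20.0%, against 14.0%). With SMAD2 it was 8 (22.9%, against 15.7%), and 7 with only well measured probes (20.0%, against 10.2%). It was 3 after normexp correction (8.57%, against 14.2%), 2 in the authors' values (5.71%, against 7.18%) and 3 with wider windows (8.33%, against 12.8%). It was 1 against the mean input (2.86%, against 8.47%) and 2 after the loess (5.71%). The SMAD2 share of all genes was also below 15.7% under all 6 alternatives, from 7.18% to 14.2%. With SMAD4 the number of cell cycle genes was 8 (22.9%, against 41.3%). It was 5 after normexp correction (14.3%, against 27.0%) and 4 with the mean input (11.4%, against 10.0%). Enriched genes stayed at 0 with SMAD2 and SMAD4 under all 6 alternatives, and with SMAD1/5 under all but normexp correction, which called 2, Cdc6 and E2f1, beside 548 of 16776 genes. Low windows numbered 6 with SMAD1/5 after normexp correction, beside 2292 of 16776 genes. They numbered 0 after the loess, beside 437 of all genes, and 0 against the mean input, beside 28. Against the mean input they numbered 2 with SMAD2, Bub1 and Ccne1, beside 415 of 16772 genes. With the SMAD2 input alone they numbered 0, and the mean input also holds the SMAD1/5 input. With SMAD4 they numbered 1 against the mean input, Mcm3, beside 146 of 16776 genes. The median promoter mean with SMAD2 was -0.00023 after normexp correction (all genes -0.057) and -0.11 against the mean input (-0.12). That with SMAD4 was below 0 under all 6, as was that of all genes. Against the mean input the cell cycle genes lay above all genes with SMAD4, at -0.079 against -0.13. No replicate could be left out, since each antibody has 1. No paired analysis was possible because no antibody has a second sample of the same probes. Depth limits SMAD1/5 most, where the median input spot was 2.35 and 2.73 times its background on the 2 arrays. The causes of these shifts were not tested.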
